A study of Mus musculus with 4 samples.

Results

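The genes examined here encode proteins of the neuronal cytoskeleton and of synaptic vesicle fusion, measured in whole mouse embryos with and without intact *Dyrk2*. The members are 10 genes chosen by name, *Dcx*, *Tubb3*, *Stmn2*, *Elavl3*, *Elavl4*, *Nefl*, *Nefm*, *Snap25*, *Syt1* and *Gap43*, out of 27499 named genes on the array. Every probe whose gene name in the scanner output equals one of these symbols was taken, which gave 25 probes of 56605. The rule itself reads names only, although the genes were proposed with earlier results of these data known.

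RNA of whole C57BL/6 embryos was labelled with Cy3 and hybridized to 4 single-colour Agilent arrays of 1 slide. The groups were WT embryos at E8.5, embryos lacking functional *Dyrk2* (*Dyrk2*-/-) at E8.5, WT embryos at E10.5 and *Dyrk2*-/- embryos at E10.5, with 1 array for each. The mutant alleles are small deletions made with a CRISPR nickase. How many embryos gave each RNA is not stated in the sources used here. With 1 array per genotype and stage, a difference between genotypes at a stage has no replicate check, so that precision is limited by how many arrays there are. Each array held 62976 spots, of which 59305 were not controls and 0 were saturated, and the scanner software marked between 30227 and 31943 probes as well above background.

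*Dyrk2*, which encodes a protein kinase, was examined first. Its brighter probe (mm9, chr10:118296479-118296538) read 0.06 (WT) and 0.76 (*Dyrk2*-/-) at E8.5, and −0.31 (WT) and 0.34 (*Dyrk2*-/-) at E10.5, as log2 intensity relative to each array's 75th percentile. The other probe read −0.23, −0.20, −0.28 and 0.00 in the same order. The brighter probe was thus 1.62-fold higher in the E8.5 mutant and 1.57-fold higher in the E10.5 mutant as labelled, and it stayed higher under every scaling tried, while the other probe at E8.5 had a log2 difference of −0.52 under spike-in scaling and −0.23 without scaling. Small deletions need not remove the stretch a probe binds, and where the probes lie relative to them was not determined, so neither probe checks the genotype labels. The arrays are therefore called by their labels throughout. *Xist*, the RNA of the inactive X chromosome, was well above background on a single array, the one labelled *Dyrk2*-/- at E10.5, and there exceeded its WT partner at least 20.4-fold. *Ddx3y*, *Eif2s3y*, *Kdm5d* and *Uty* of the Y chromosome were detected by the same mark on the 3 remaining arrays and were at least 6.72-, 43.2-, 39- and 6.71-fold lower on that one. These sex-linked genes were chosen after their values were seen. The genotype pair at E10.5 therefore also differs in sex-linked transcripts, and genotype and this sex-linked difference cannot be told apart at that stage. The *Dyrk2*-/- arrays differ likewise between the stages, with *Xist* at least 17.9-fold higher and *Eif2s3y* at least 60.1-fold lower at E10.5. Stage differences on these arrays, and fits over all 4 arrays, therefore include this sex-linked difference, and its part in them was not tested.

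As newly born neurons leave the cell cycle they build an axon, and the transcripts of neuron-specific tubulins, microtubule regulators and neurofilaments accumulate with it. RNA-binding proteins of the Elav family stabilize many of these transcripts. Proteins of regulated secretion, such as SNAP-25 and synaptotagmins, are made before synapses form and later drive the fusion of synaptic vesicles with the membrane. In mouse embryos the first neurons appear around the time the neural tube closes.

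All levels are log2 intensities relative to the 75th percentile of the array, and each gene is given by its probe of highest mean signal unless another is named. Levels of different probes are not comparable, so that every difference is of a probe between arrays, while the gene of highest signal in a list and summed levels only describe signal on the arrays and do not compare the expression of genes. Where 1 array of a pair did not measure a probe above background, the difference has only a bound, taken against the lowest level of any probe well above background there (−4.82 for WT and −4.53 for *Dyrk2*-/- at E8.5, −4.72 and −4.77 at E10.5), or against the level of the probe itself where that was higher. The stage difference was tested with limma over all 4 arrays with genotype in the model and 1 residual degree of freedom. A probe's own spread in this fit is only how far its stage difference varies between the genotypes. limma combines it with the spread of other probes of similar intensity, so the p-values also draw on those probes. They measure only spread between these arrays and no spread between replicate embryos. Both stages entered the test of genotype in the same fit, so that the comparisons share arrays.

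All 10 members rose from E8.5 to E10.5 past limma's adjusted threshold of 0.05, against 18.7% of 17047 genes tested that rose and 21.9% that fell. The median difference of the members between the stages was 2.96 (log2) on the WT arrays, where the median of all genes was −0.08, and 2.51 on the *Dyrk2*-/- arrays, where it was −0.06. Each member was higher at E10.5 in both genotypes. On the WT E8.5 array 9 members were well above background, on the *Dyrk2*-/- E8.5 array 8, and on both E10.5 arrays 10. Under spike-in scaling 7 of the 10 passed, without *Stmn2*, *Snap25* and *Gap43*, against 7.75% of all genes that then rose and 2.29% that fell. In whole embryos, more neurons and more RNA per neuron cannot be told apart, and the same holds for lower values.

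**Figure D1:**
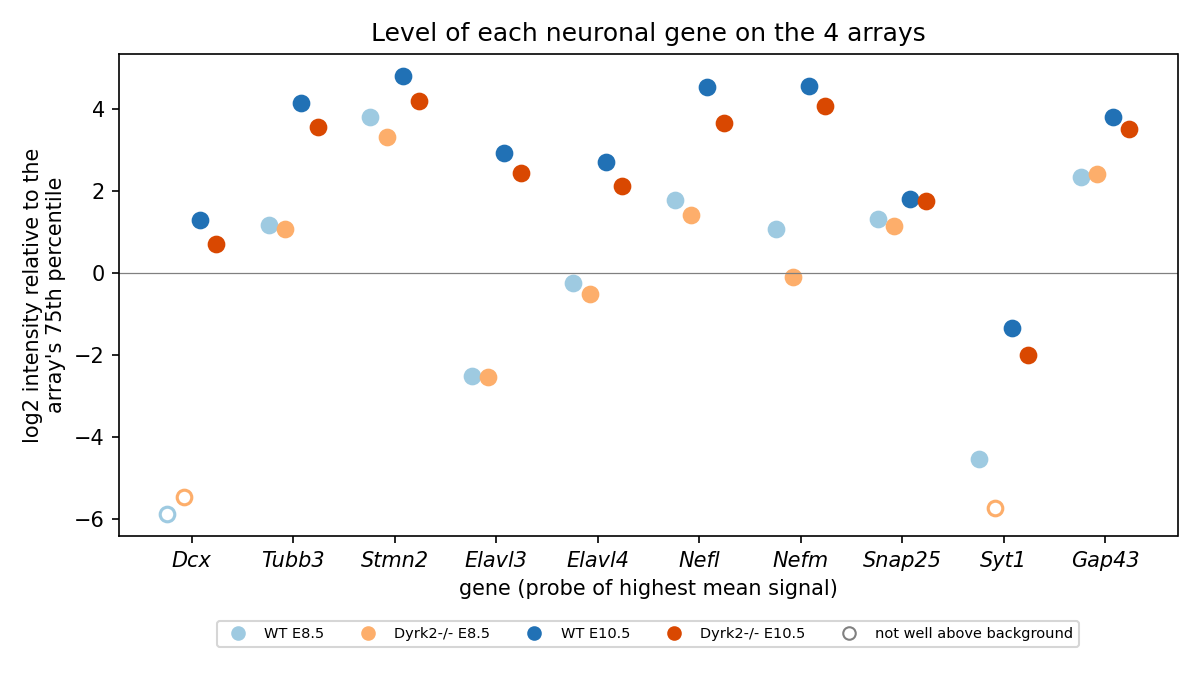
Level of each of the 10 genes on the 4 arrays, given by the probe of highest mean signal (x axis, gene; y axis, log2 intensity relative to the array's 75th percentile). Each point is 1 array, and open points are not well above background. For every gene both E10.5 points lie above both E8.5 points, with the smallest fitted difference, 0.54, for *Snap25*; the E8.5 points of *Dcx* and 1 of *Syt1* are open.

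Among the genes of microtubules, *Dcx* encodes doublecortin, which stabilizes microtubules in migrating neurons, and lies on the X chromosome (chrX:140290854-140290913). Its level was −5.89 (WT) and −5.47 (*Dyrk2*-/-) at E8.5, and 1.30 (WT) and 0.71 (*Dyrk2*-/-) at E10.5. Both E8.5 values were not well above background, and both E10.5 values were. The rise was at least 69.6-fold on the WT arrays and at least 37.6-fold on the *Dyrk2*-/- arrays, and limma's fit on the measured values gave 6.69 ± 0.26 (log2 ± SE, 4 arrays, adjusted p = 6.14e-07). These folds shrank with normexp, to log2 differences of 3.91 (WT) and 3.13 (*Dyrk2*-/-), and with the mean over all probes, to 3.70 and 2.89. At E10.5 *Dcx* was 1.51-fold lower on the *Dyrk2*-/- array, and at E8.5 no fold could be given. Whether the X-linked position of *Dcx* bears on that difference, given the *Xist* values above, was not tested.

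*Tubb3* encodes the neuron-specific class III beta-tubulin (chr8:125945701-125945760). Its level was 1.17 (WT) and 1.06 (*Dyrk2*-/-) at E8.5, and 4.13 (WT) and 3.56 (*Dyrk2*-/-) at E10.5. The E10.5 arrays were higher by 2.73 ± 0.14 (adjusted p = 2.22e-06). The genotypes lay close together at E8.5, with a log2 difference of −0.11, and apart at E10.5, with −0.57. *Stmn2* encodes a stathmin that destabilizes microtubules in growth cones (chr3:8560382-8560441). Its level was 3.80, 3.32, 4.80 and 4.18 in the same order of arrays. The *Dyrk2*-/- array was below the WT array at both stages, 1.39-fold at the earlier and 1.53-fold at the later, and the rise between the stages was 0.93 ± 0.12 (adjusted p = 0.000367). Without the WT E10.5 array, limma did not call *Stmn2* between the stages.

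The RNA-binding members *Elavl3* (chr9:21822653-21822712) and *Elavl4* (chr4:109877455-109877514) encode the Elav proteins HuC and HuD. The level of *Elavl3* was −2.51 (WT) and −2.53 (*Dyrk2*-/-) at E8.5, and 2.93 (WT) and 2.43 (*Dyrk2*-/-) at E10.5. Both E8.5 arrays were low and alike at this probe, and both E10.5 arrays were high. The rise of 5.20 ± 0.16 (adjusted p = 2.77e-07) was 43.3-fold on the WT arrays and 31.1-fold on the *Dyrk2*-/- arrays. *Elavl4* read −0.26, −0.52, 2.69 and 2.12 and rose by 2.80 ± 0.14 (adjusted p = 1.63e-06). At E10.5 the *Dyrk2*-/- array was lower for both genes, with log2 differences of −0.50 for *Elavl3* and −0.57 for *Elavl4*. At E8.5 they were −0.03 and −0.27. That of *Elavl3* was 0.10 after normexp background correction, −0.58 under spike-in scaling and −0.29 without scaling.

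*Nefl* (chr14:68705725-68705784) and *Nefm* (chr14:68737598-68737657) encode the light and medium neurofilament proteins, which fill growing axons. The level of *Nefl* was 1.78 (WT) and 1.41 (*Dyrk2*-/-) at E8.5, and 4.53 (WT) and 3.66 (*Dyrk2*-/-) at E10.5. It rose by 2.50 ± 0.14 between the stages (adjusted p = 3.95e-06). At E10.5 the *Dyrk2*-/- array was 1.83-fold lower, the largest difference among the 10 members at that stage at the brightest probe, and a log2 difference of −0.37 separated the arrays at E8.5. *Nefm* read 1.06, −0.09, 4.56 and 4.06 and rose by 3.82 ± 0.16 (adjusted p = 8.55e-07). Its widest gap lay at E8.5, where the *Dyrk2*-/- array was 2.21-fold lower, against 1.41-fold at E10.5. From E8.5 to E10.5 *Nefm* was therefore 11.3-fold higher on the WT arrays and 17.7-fold higher on the *Dyrk2*-/- arrays, whereas *Nefl* was 6.75- and 4.76-fold higher. At a neighbouring *Nefm* probe (chr14:68738193-68738252) the rises lay closer, 12.1-fold on the WT arrays and 13.4-fold on the *Dyrk2*-/- arrays. Its genotype differences were −0.57 at E8.5 and −0.42 at E10.5. Whether the genotype difference of *Nefm* differs between the stages was not tested.

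*Gap43* encodes a growth cone protein under the plasma membrane (chr16:42248714-42248773). Its level was 2.33 (WT) and 2.42 (*Dyrk2*-/-) at E8.5, and 3.81 (WT) and 3.50 (*Dyrk2*-/-) at E10.5. The rise was 1.28 ± 0.13 (adjusted p = 0.00013). *Gap43* was the only member with a positive genotype difference at E8.5 (0.09), and this turned negative under spike-in scaling (−0.46) and without scaling (−0.17). At E10.5 its difference was −0.31.

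*Snap25* encodes a SNARE protein of the fusion machinery (chr2:136607709-136607768). Its level was 1.32 (WT) and 1.15 (*Dyrk2*-/-) at E8.5, and 1.80 (WT) and 1.74 (*Dyrk2*-/-) at E10.5. The rise of 0.54 ± 0.13 (adjusted p = 0.0101) was the smallest of the 10, and limma did not call it without the WT E10.5 array, without the *Dyrk2*-/- E10.5 array or without the intensity trend. The genotype differences were −0.17 (E8.5) and −0.07 (E10.5), of which the second turned to 0.09 under spike-in scaling. *Syt1* encodes synaptotagmin-1, the calcium sensor of fast release (chr10:107935310-107935369). It read −4.54, −5.73, −1.35 and −2.00, and the *Dyrk2*-/- E8.5 value was not well above background. The rise was 9.15-fold on the WT arrays and at least 5.75-fold on the *Dyrk2*-/- arrays (limma on the measured values, 3.46 ± 0.28, adjusted p = 2.72e-05). It was smaller with normexp, at log2 differences of 1.40 (WT) and 0.91 (*Dyrk2*-/-), and with the mean over all probes, at 1.45 and 1.55. At E10.5 the *Dyrk2*-/- array was 1.57-fold lower, and at E8.5 no fold could be given because the bound was under 1.

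Between genotypes at E10.5 the members lay together below WT. All 10 were lower on the *Dyrk2*-/- array, against 53.2% of 17212 genes, and the direction held for all 10 under 75th percentile, quantile and normexp settings and without scaling, and for 9 under spike-in scaling, where *Snap25* turned. Past 1.5-fold, 4 of 10 were lower (*Dcx*, *Stmn2*, *Nefl* and *Syt1*) and 0 higher, against 3.22% of all genes lower and 2.06% higher. *Tubb3* and *Elavl4* fell just short at 1.49-fold and *Dcx* passed at 1.51-fold, so the count depends on small differences. The count also depended on scaling. It was 1 of 10 with spike-in scaling (5.59% of all genes in either direction) and 8 of 10 without scaling (7.1%). The median was −0.57, and −0.01 over all genes. The differences of 9 members were wider than a combined spread between spots, 0.11, and that of *Snap25* was not. It combines, for both arrays, the median standard deviation between spots over 297 repeatedly printed probes, not that of each member's probe. This spread covers the array surface and not the embryos. The share of all genes beyond it is not given here, so the count describes the members only.

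At E8.5, of the 9 members well above background on at least 1 array, 7 were lower on the *Dyrk2*-/- array and *Gap43* was higher, and *Syt1* had no fold. Of all 16830 genes, 53.9% were lower there. Only *Nefm* was past 1.5-fold, 1 of 9 lower and 0 higher, against 4.19% of 16830 genes lower and 4.14% higher. A neighbouring probe of *Nefm* was 1.48-fold lower. The median was −0.17, and −0.02 over all genes. Under spike-in scaling the count past 1.5-fold was 6 of 9 (48.5% of all genes in either direction) and the median −0.72. Without scaling they were 3 of 9 (14.8%) and −0.43. The differences of 5 members were wider than the same combined measure for the E8.5 arrays, 0.15, again without the share over all genes. Measured values in place of bounds were an alternative chosen after seeing the data. *Syt1* was then added and the count was 2 of 9, against 10.3% of all genes in either direction. The median was then −0.27, against −0.03 over all genes.

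Scaling moved all genes together. With spike-in control probes the median of all genes between genotypes moved to −0.57 (E8.5) and 0.15 (E10.5), and between stages to −0.15 on the WT arrays and 0.58 on the *Dyrk2*-/- arrays. Without scaling these medians were −0.28, −0.15, 0.10 and 0.24. The share of genes lower on the *Dyrk2*-/- array was 94.7% (E8.5) and 22.3% (E10.5) with spike-in scaling, and 84.2% and 79.7% without scaling. The members' median minus that of all genes was −0.15 (E8.5) and −0.56 (E10.5), which the 75th percentile, spike-in and no scaling share by construction, since they differ by a constant per array. No member passed the adjusted threshold for genotype over both stages in limma (0 of 10, against 0.0176% of genes). At an unadjusted p under 0.05 there were 6 of 10 members, *Tubb3*, *Stmn2*, *Elavl4*, *Nefl*, *Nefm* and *Syt1*, and 930 genes in all, 5.46% of those tested. The fit of *Syt1* includes its *Dyrk2*-/- E8.5 value, which was not well above background. *Nefm* had the lowest p of the members, with a difference of −0.82 ± 0.16 and an adjusted p of 0.233. Without scaling between arrays 5 members passed, *Syt1* among them, and all were lower on the *Dyrk2*-/- arrays. Of all genes 2.65% passed in either direction and 2.23% lower, and most genes were then lower there, as given above.

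**Figure D2:**
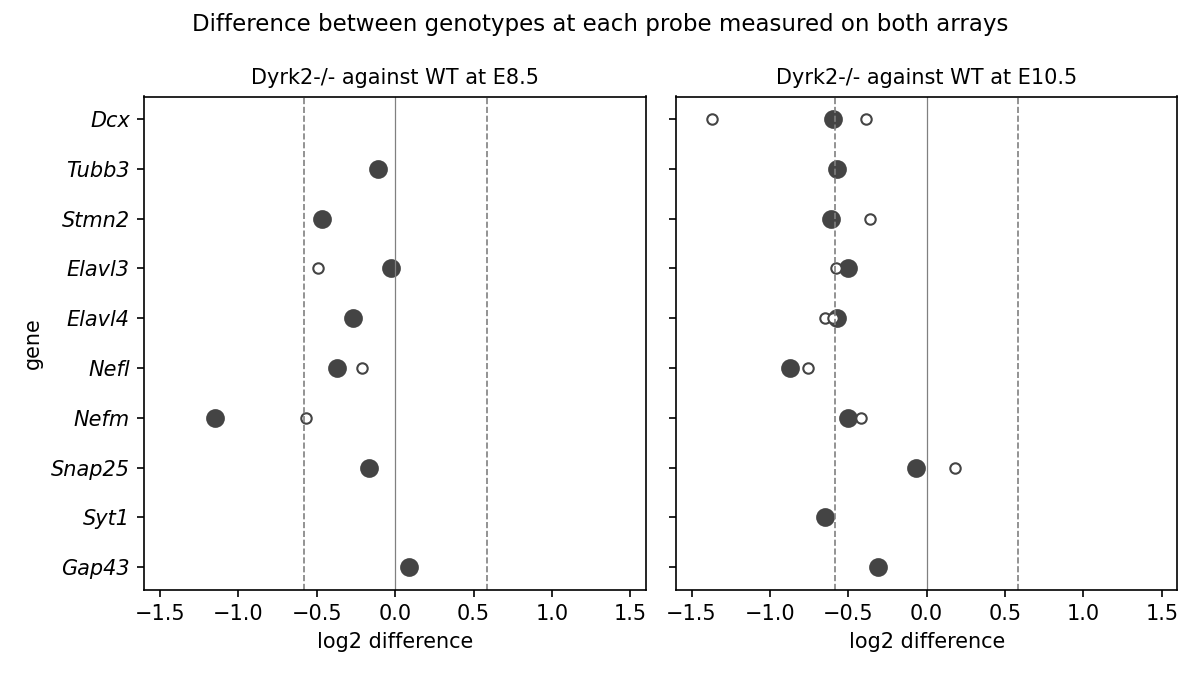
Log2 difference between the *Dyrk2*-/- and the WT array for each probe well above background on both arrays (x axis), by gene (y axis), at E8.5 on the left and E10.5 on the right. Filled points are the probe of highest mean signal, open points are other probes, and dashed lines mark 1.5-fold. At E10.5, 18 of 19 probes lie below 0, and at E8.5, 10 of 11. Of all genes, each given by its probe of highest mean signal, 53.2% were lower at E10.5 and 53.9% at E8.5.

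The 25 probes of the members differed in what they detected. Of these, 11 were well above background on all 4 arrays and 4 on no array, and 8 members had more than 1 probe. At E10.5, 18 of the 19 probes measured on both arrays were lower on the *Dyrk2*-/- array, and 1 of *Snap25* (chr2:136588586-136588645) was higher by 0.18. For *Nefm* the brightest probe gave a genotype difference of −1.15 at E8.5 and a neighbouring probe (chr14:68738193-68738252) gave −0.57, under 1.5-fold. For *Elavl3* they gave −0.03 and −0.49. For *Dcx* at E10.5 the brightest probe gave −0.60, and the others measured there gave −1.37 (chrX:140296337-140296396) and −0.39 (chrX:140303871-140303930). The stage difference also varied with the probe. On the WT arrays *Elavl4* was higher at E10.5 by 2.95 at its brightest probe and by 4.29 at another (chr4:109884183-109884242), and on the *Dyrk2*-/- arrays the latter, not well above background at E8.5, was at least 14-fold higher against 6.27-fold at the brightest. The other probe of *Stmn2* was not well above background on either E8.5 array and was at least 3.54-fold (WT) and 2.24-fold (*Dyrk2*-/-) higher at E10.5, against 2- and 1.82-fold at the brightest. No probe of *Dcx* was well above background at E8.5, and the bounds of its other probes lie below those of the brightest, which gives no order between their stage differences. Another probe of *Snap25* gave a fitted 0.88 that did not pass (limma, adjusted p = 0.109), with the *Dyrk2*-/- E8.5 value not well above background. The remaining probe of *Snap25*, whose target spans 3780 bases of mm9 (chr2:136595900-136599679), was well above background only on the WT E10.5 array.

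The *Snap25* and *Elavl4* probes are shown because the probes of each gene differed in where they were detected or in the stage difference. The brightest *Snap25* probe opens with 20 bases of alternating letters, a run that 94 of 56604 probes (0.166%) match or exceed, and the brightest *Elavl4* probe holds a run of 11, matched or exceeded by 309 (0.546%). Whether such a repeat adds signal was not tested, and the search for it was chosen after seeing the data. Capitals mark the repeat in the first 30 bases of the *Snap25* probe.
Snap25, chr2:136607709-136607768, first 30 bases: CACACACACACACACACACAaagtggattt
Snap25, chr2:136595900-136599679: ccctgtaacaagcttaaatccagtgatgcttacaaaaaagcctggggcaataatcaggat
Elavl4, chr4:109884183-109884242: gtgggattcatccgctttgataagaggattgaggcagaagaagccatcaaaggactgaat

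The profiles most like the mean of the members over the 4 arrays were found among 17037 other genes well above background on at least 2 arrays, by the root mean square difference of centred log2 levels. They were *Gpm6b* (0.03), *Tmem178b* (0.04), *Osr2* (0.07), *Apobec1* (0.08) and *Thsd7a* (0.09). The mean profile of the members was −1.34 (WT) and −1.66 (*Dyrk2*-/-) at E8.5, and 1.76 (WT) and 1.23 (*Dyrk2*-/-) at E10.5. Among the 8 members well above background on all 4 arrays, *Elavl4* lay closest to it (0.10) and *Snap25* farthest (1.24). The mean includes E8.5 values of *Dcx* and *Syt1* that were not well above background, as were those of *Tmem178b* and *Apobec1* on both E8.5 arrays and of *Osr2* on 1, so that the order of these genes rests in part on background. *Gpm6b*, a proteolipid of neural membranes, read −0.43, −0.70, 2.65 and 2.15.

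Other genes of the same roles were read from lists. Of 20 further neuronal microtubule genes, 19 rose from E8.5 to E10.5 and 0 fell in limma, and 19 of 20 were lower on the *Dyrk2*-/- array at E10.5 (median −0.36). *Stmn4* rose most (6.40), *Dpysl5* had a stage difference of −0.03 (adjusted p = 0.87), and *Stmn1* had the highest signal, with 0.44 between the stages. Past 1.5-fold at E10.5 were *Stmn3* (−0.86), *Dpysl3* (−0.76), *Map2* (−0.66) and *Stmn4* (−0.60), all lower. At E8.5 the list had a median of 0.04, which turned to −0.50 under spike-in scaling and −0.21 without scaling, and *Stmn4* was higher (0.80). The direction at E10.5 was also lower for 18 of 20 under spike-in scaling. Of the 3 other intermediate filament genes, *Ina*, the one of highest signal, and *Prph* rose (2.60 and 1.08), whereas *Nefh*, the heavy neurofilament, fell by 2.99 (adjusted p = 6.15e-06). At E10.5, *Ina* (−0.67) and *Prph* (−1.09) were past 1.5-fold and *Nefh* was not (−0.34), and the median was −0.67, against −0.37 at E8.5.

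Of 9 further neuronal RNA-binding genes, 8 rose and 0 fell, and 9 of 9 were lower on the *Dyrk2*-/- array at E10.5 (median −0.43), 8 of 9 under spike-in scaling. *Celf3* rose most (4.58) and was lower on the *Dyrk2*-/- array at both stages (−1.14 and −0.60), as was *Rbfox1* (−1.18 and −0.72). *Celf5* was past 1.5-fold at E8.5 (−0.60) and *Celf6* at E10.5 (−0.85). *Elavl2*, of the highest signal, had genotype differences of −0.35 and −0.21, and *Rbfox3*, with the smallest stage difference (0.24, adjusted p = 0.246), had −0.01 and −0.43. The median at E8.5 was −0.32. Of 9 growth cone and adhesion genes, 6 rose and 1 fell, and 9 of 9 were lower at E10.5 (median −0.37), 8 of 9 under spike-in scaling. *Cntn2* had the largest fitted rise (5.63; 5.83 on the WT arrays and at least 30.3-fold on the *Dyrk2*-/- arrays) and *Nrcam* fell by 0.74, while *Marcks*, of the highest signal, rose by 0.74. Past 1.5-fold were *Cntn2* (−0.70) and *Chl1* (−0.63) at E10.5, and *Chl1* was at least 3.17-fold lower at E8.5, where the median of the list was 0.02, turning to −0.50 under spike-in scaling and −0.21 without scaling.

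Of 17 further SNARE and fusion genes, 7 rose and 3 fell between the stages, and at E10.5, 10 were lower and 7 higher on the *Dyrk2*-/- array (median −0.06), turning to 5 lower and 12 higher under spike-in scaling. *Unc13a* rose most (1.78), and *Vamp3*, which had the highest signal, fell most (−0.58). Genes past 1.5-fold at E8.5 included *Unc13a* (0.74) and *Vamp1* (0.60), both higher, and *Cplx2*, lower (−0.67). Only *Vamp1* (0.63) was past it at E10.5. At E8.5 the median was 0.03, turning to −0.52 under spike-in scaling and −0.23 without scaling. Of 16 further synaptotagmins, 5 were well above background on no array, and of the 10 tested 5 rose and 2 fell. At E10.5, 8 of 11 were lower on the *Dyrk2*-/- array (median −0.23), and 6 of 11 under spike-in scaling. *Syt11* had the highest signal (stage difference 1.59) and *Syt3* the largest fall (−1.06). *Syt16*, with a fitted rise of 2.30 (limma), was not well above background on either E8.5 array, which gives it no rank, and its rise on the *Dyrk2*-/- arrays was at least 1.15-fold. *Syt10* read 0.22 (WT) and −3.52 (*Dyrk2*-/-) at E8.5, and 0.32 (WT) and −0.05 (*Dyrk2*-/-) at E10.5. The *Dyrk2*-/- E8.5 array alone was low for it, with a difference of −3.74, and *Syt9* was also past 1.5-fold there (−0.64). At E10.5 *Syt4* and *Syt14* were at least 1.66- and 1.79-fold lower. The median at E8.5 was 0.05, turning to −0.50 under spike-in scaling and −0.21 without scaling.

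Of 26 synaptic vesicle genes, *Slc17a7* was well above background on no array, and of the 25 tested 14 rose and 5 fell. At E10.5, 21 of 25 were lower on the *Dyrk2*-/- array (median −0.31), and 16 of 25 under spike-in scaling. *Sncg*, measured on all 4 arrays, rose by 4.80, and *Rab3c*, not well above background on either E8.5 array, rose at least 12.9-fold (WT) and 5.37-fold (*Dyrk2*-/-), with a fitted 4.81 that does not rank it. *Sv2b* and *Amph* fell most (both −1.95), and *Sypl*, of the highest mean log2 signal, fell by 0.77. Past 1.5-fold and lower at E10.5 were *Slc32a1* (−1.23), *Rab3c* (−0.97), *Slc17a6* (−0.87), *Sncg* (−0.86), *Slc18a3* (−0.64), *Snap91* (−0.63) and *Bsn* (−0.59). These include the vesicular transporters of GABA, glutamate and acetylcholine. At E8.5, *Syn3* (−0.75) and *Slc32a1* (−0.67) were lower and *Sncb* was at least 1.55-fold higher, with a median of −0.02 over the list, which was 0.09 with normexp.

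**Figure D3:**
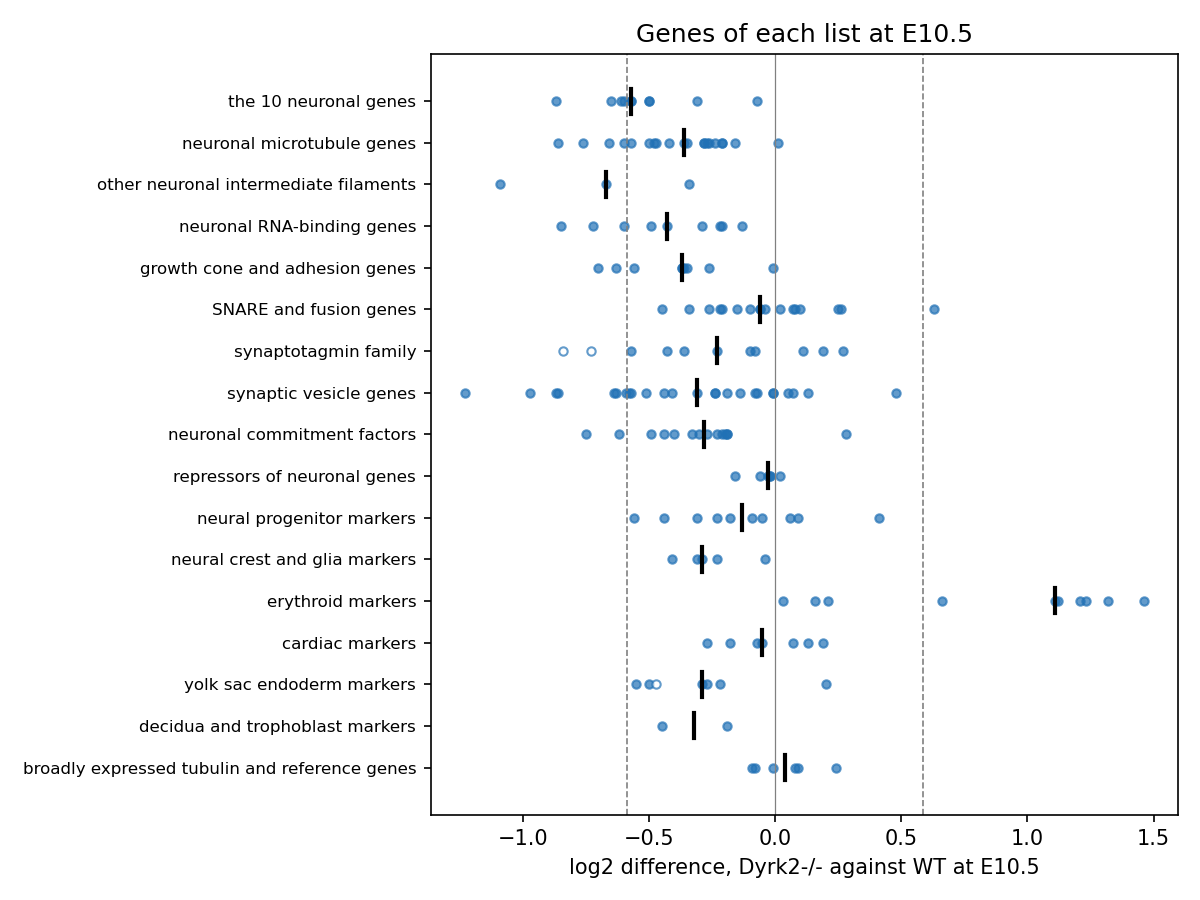
Log2 difference between the *Dyrk2*-/- and the WT array at E10.5 (x axis) for the genes of each list (y axis). Filled points are genes well above background on both arrays, open points are bounds of genes well above background on 1 array, bars are list medians and dashed lines mark 1.5-fold. The 10 neuronal genes have a median of −0.57, and the erythroid markers lie on the other side of 0, with a median of 1.11. Under spike-in scaling the medians of the SNARE, progenitor, repressor and cardiac lists turn positive, and without scaling that of the reference genes turns negative.

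The factors that commit cells to the neuronal fate and the repressors of neuronal genes were read beside the members. Of 16 commitment factors, *Tlx3* was well above background on no array, and 12 of the 15 tested rose and 0 fell. At E10.5, 13 of 14 were lower on the *Dyrk2*-/- array (median −0.28), and 13 of 14 under spike-in scaling. *Neurod1*, not well above background on either E8.5 array, rose at least 63.1-fold (WT) and 39-fold (*Dyrk2*-/-), with a fitted 7.01 that does not rank it. *Mnx1*, not well above background on either E10.5 array, had a fitted −1.01 that did not pass (adjusted p = 0.0686), and *Nhlh1*, of the highest signal, rose by 5.37. *Myt1* (−0.75) and *Nhlh2* (−0.62) were past 1.5-fold at E10.5. At E8.5, *Pou4f1* was lower (−1.40), *Neurog2* was higher (0.86), and the median was −0.03. *Rest*, the repressor that silences neuronal genes outside neurons, read 3.07, 2.67, 2.64 and 2.58, with a stage difference of −0.26 ± 0.13 that did not pass (adjusted p = 0.152). Among the 6 repressors, 0 rose and 3 fell, with *Ctdsp1* falling most (−0.67), *Rcor1* at 0.32 and *Rcor2*, of the highest signal, at −0.30. The repressors had medians of 0.03 at E8.5 and −0.03 at E10.5, which turned to −0.51 and 0.13 under spike-in scaling. Of 38 listed genes past 1.5-fold at E8.5, other probes of *Celf3*, *Syn3*, *Pou4f1* and *Notch1* had the opposite sign, and of 30 at E10.5, 0 did.

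Markers of other cells in the embryo moved with genotype too. The summed level of the 10 members, relative to the 75th percentile signal and weighted to bright probes such as that of *Stmn2*, was 30.2 (WT) and 24.1 (*Dyrk2*-/-) at E8.5, and 127 (WT) and 85.5 (*Dyrk2*-/-) at E10.5. That of 10 erythroid markers was 15.5, 326, 1102 and 1303, with *Hbb-bh1* of the highest mean signal and every marker well above background on at least 1 array. All 10 erythroid markers were higher on the *Dyrk2*-/- array at both stages (median 4.17 at E8.5 and 1.11 at E10.5), except that 1 turned at E10.5 without scaling, with quantile normalization and in the deposited table. All 10 also rose between the stages, *Hbb-y* most (5.31) and *Epor* least (2.05), and *Epor* was the 1 listed gene past limma's threshold for genotype (adjusted p = 0.0434). At E8.5 the differences were 6.00 for *Hbb-y*, 5.09 for *Slc4a1*, 5.08 for *Hba-x*, 4.94 for *Hba-a1*, 4.27 for *Gata1*, 4.07 for *Alas2*, 3.78 for *Hbb-bh1* and 1.41 for *Epor*, and *Klf1* was at least 3.99-fold higher. Those past 1.5-fold at E10.5 included *Klf1* (1.32), *Gata1* (1.23), *Alas2* (1.21), *Slc4a1* (1.12), *Epor* (1.11) and *Hba-x* (0.66). The part of these cells in the lower values of the members was not tested.

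The markers of neural progenitors kept closer to the median of all genes. Of 10, 4 rose and 0 fell, the medians between genotypes were −0.03 at E8.5 and −0.13 at E10.5, the latter turning to 0.03 under spike-in scaling, and the summed level was 51.5, 56.8, 132 and 110 in the order of arrays above. *Hes5* had the highest signal (stage difference 2.11), *Fabp7* rose most (3.77) and *Dll1* had −0.26 (adjusted p = 0.187). At E8.5, *Notch1* (−0.77) and *Fabp7* (−0.70) were past 1.5-fold and *Hes5* lay at 0.58, below it. At E10.5, 7 of the 10 progenitor markers were lower and 3 higher on the *Dyrk2*-/- array, against 53.2% of all genes lower. *Fabp7* lay at −0.56 and *Dll1* at −0.44 there, and *Notch1* at 0.41. Of 5 neural crest and glia markers, 0 rose and 3 fell, with *Foxd3* falling most (−1.10), *Erbb3* at −0.08 and *Tfap2a* of the highest signal falling by 0.70. The medians were −0.08 and −0.29, with 5 of 5 crest and glia markers lower on the *Dyrk2*-/- array at E10.5. *Sox10* was higher at E8.5 (0.71), and the summed level was 11.9, 12.3, 9.71 and 8.22. All progenitor and crest markers were well above background on at least 1 array. Cardiac markers, 7 in all, had medians of 0.00 and −0.05 (−0.55 and 0.12 under spike-in scaling), 1 rose (*Nppa*, 3.41) and 6 fell (*Myl7* most, −1.30), and their summed level, led by *Myh6*, was 273, 276, 149 and 153.

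Of 7 yolk sac endoderm markers, 1 rose (*Afp*, by 0.72, the gene of highest mean signal over the 4 arrays) and 6 fell. At E8.5 all 7 were lower on the *Dyrk2*-/- array (median −0.63), with *Amn* (−0.81), *Cubn* (−0.79), *Apob* (−0.63), *Ttr* (−0.63) and *Rbp4* (−0.59) past 1.5-fold, and at E10.5 the median was −0.29. Their summed level was 50.4, 32.7, 20.8 and 17.2, and *Amn* had the largest fitted fall (−5.18), at least 32.2-fold on the *Dyrk2*-/- arrays, where it was not well above background at E10.5. Of 5 decidua and trophoblast markers, *Tpbpa* was well above background on no array, and of the 3 tested *Prl3b1* rose (1.72), and *Plac1*, of the highest mean signal, and *Prl8a2* fell, the former with a stage difference of −1.16 and the latter at least 3.17-fold (WT) and 8.95-fold (*Dyrk2*-/-) because no E10.5 value was well above background. At E8.5, *Prl8a2* was higher on the *Dyrk2*-/- array (1.45), *Prl3d1* was at least 6.62-fold higher, and the median was 0.54 (−0.01 under spike-in scaling), against −0.32 at E10.5. Their summed level was 1.02, 1.20, 0.571 and 0.482. The 6 broadly expressed tubulin and reference genes had medians of 0.17 and 0.04, which were −0.38 and 0.20 under spike-in scaling and −0.09 and −0.09 without scaling, and 0 rose and 1 fell (*Gapdh*, by 0.36). *Tuba1b* had the highest signal (stage difference −0.19) and *Tubb5* the largest difference upward (0.01). The part of these cells in the results was not tested.

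Since the members moved together between the stages, their promoters were read from RefSeq (GRCm38.p6), where 5 of the 10 members have 10 windows of 250 bases before to 50 after a transcript start, among 32851 windows. On both strands, CAGCTG was found in 4 windows of 3 members (*Elavl3*, *Elavl4* and *Syt1*) and in 16.3% of all windows, and CAGATG in 3 windows of *Elavl4* and in 17.2%. TATAAA was found in 3 windows of *Dcx* and *Elavl3* and in 13.6%. CAGCACC and GGACAGC, stretches of the element that REST binds, were each found in 1 window, of *Tubb3*, and in 7.14% and 6.56% of all windows. Some windows of a gene overlap, and a match is a description of letters only. The 250 bases before the start of *Elavl3*, the member with the largest rise among those measured on all 4 arrays, and of *Tubb3* are shown 5′ to 3′ on the strand of the gene, with these letters, on either strand, in capitals.
Elavl3, chr9:22052024-22052273, minus strand: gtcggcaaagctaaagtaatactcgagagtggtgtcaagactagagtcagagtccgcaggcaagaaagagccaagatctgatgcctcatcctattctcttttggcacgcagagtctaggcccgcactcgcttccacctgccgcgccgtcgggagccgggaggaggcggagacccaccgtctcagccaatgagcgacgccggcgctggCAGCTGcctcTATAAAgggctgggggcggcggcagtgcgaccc
Tubb3, chr8:123411303-123411552, plus strand: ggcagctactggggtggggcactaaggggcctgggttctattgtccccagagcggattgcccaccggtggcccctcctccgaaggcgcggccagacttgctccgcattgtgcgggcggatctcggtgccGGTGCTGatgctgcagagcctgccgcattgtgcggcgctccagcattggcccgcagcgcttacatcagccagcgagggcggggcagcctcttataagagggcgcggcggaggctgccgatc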

How the data were processed

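Scanner files deposited for the 4 arrays hold, for every spot, a linear processed intensity that is background-subtracted and not scaled between arrays. Agilent Feature Extraction is given as version 10.7.1.1 by the file headers and as 9.5.1.1 by the submitters' processing notes. The values deposited for the whole series, linear intensity with a log2 median of 4.79 in each column, served as an alternative, and how they were scaled is not given in the sources used here.

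Outlier spots were dropped, the log2 intensities of a probe's other spots were averaged, and values were taken relative to the 75th percentile of their array. Marks on at least 0.5 of its spots made a probe well above background. RefSeq accessions named 32994 probes, 1535 of them anew, and other probes kept the name in the file. Coordinates of probes are those of the array annotation (mm9). Those above background by this rule on 2 or more arrays (32289 probes) were fitted with limma 3.58.1 (R 4.3.3, lmFit and eBayes with an intensity trend, stage and genotype, Benjamini-Hochberg over all probes), which was also tested on simulated data. Genotypes at 1 stage were compared by a 1.5-fold difference without a test. Genes with a bound entered counts and medians at that bound, or at 0 where it was under 1-fold. This use of bounds in counts and medians was chosen after values were seen.

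The alternatives were quantile normalization, scaling by spike-in control probes (7 of 10 used), no scaling, normexp with an offset of 50, the deposited table, a filter on all 4 arrays, no filter, the mean over the probes of a gene, no intensity trend, no genotype term, leaving out each array and a 2-fold threshold. Measured values without bounds were added after seeing the data.

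The genes named are *Dyrk2*, the members, *Rest*, the 5 genes of most similar profile and, of each list, the gene of highest mean signal, the largest rise and fall between stages and every gene past 1.5-fold between genotypes, except some that are not reported here but count in their lists. The members and lists were chosen with earlier results of these data known. The lists cover neuronal microtubule genes, intermediate filaments, RNA-binding genes, growth cone and adhesion genes, SNARE and fusion genes, synaptotagmins, synaptic vesicle genes, commitment factors, repressors, and markers of neural progenitors, neural crest and glia, erythroid cells, heart, yolk sac endoderm, and decidua and trophoblast, with broadly expressed tubulin and reference genes. Protein sequences were not used here. Python 3.11.15, numpy 2.4.6, pandas 2.3.3, data.table (version 1.17.8) and matplotlib 3.10.9 were used.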

Additional observations from a re-analysis of the deposited data

Results flagged for a closer look

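*Gap43* was picked out because its genotype difference pointed opposite ways at the stages, with 1 array per genotype at each. The *Dyrk2*-/- array was above the WT array at E8.5, by 0.09 (log2), and below it at E10.5, with −0.31. The E8.5 value was smaller than the combined spread between spots on the E8.5 arrays (0.15). That spread is a median over repeatedly printed probes, not that of the *Gap43* probe. The E8.5 value turned negative under spike-in scaling and without scaling, and the difference between the stages was not tested.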

How the results depend on the processing

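The rise of the members between the stages kept its direction in all 10 under every setting with a value for them. The number past limma's threshold was 8 to 10 when each array was left out in turn, with stage alone in the model, and was 8 without the WT E10.5 array and 9 without the *Dyrk2*-/- E10.5 array. Each of these fits left 1 array at 1 of the stages, so a gene's own spread came from the 2 arrays, of different genotype, at the other. The share of all genes is not given for these fits. With only probes well above background on all 4 arrays tested, the number was 8, since *Dcx* and *Syt1* were then not tested. Of 15419 genes tested with that filter, 16.8% rose and 22.5% fell. The median stage difference on the WT arrays was 3.14 without scaling, 2.77 with normexp and 2.52 with the mean over all probes. On the *Dyrk2*-/- arrays it was 3.15 with spike-in scaling, 2.82 without scaling, 2.31 with normexp and 2.32 with the mean over all probes. Over both stages, limma's count for genotype was 5 without scaling (2.65% of all genes) and 3 without a filter on dim probes (1.21%), with all of these members lower on the *Dyrk2*-/- arrays. At E8.5 the count past 1.5-fold was 6 of 9 with spike-in scaling (48.5% of all genes), 3 of 9 without scaling (14.8%), 2 of 10 without a filter (16.8%) and 2 of 9 with measured values in place of bounds (10.3%, chosen after seeing the data), and the median was −0.72 with spike-in scaling and −0.43 without scaling. At E10.5 the count was 1 of 10 with spike-in scaling (5.59% of all genes), 8 of 10 without scaling (7.10%), 2 of 8 with the filter on all 4 arrays (2.92%) and 0 of 10 at 2-fold (1.31%), and the median was −0.41 with spike-in scaling and −0.70 without scaling. The scaling shifts match those of all genes, and otherwise the cause was not tested. No paired analysis was possible because each group has 1 array and so no replicate numbers to pair, other than the fit with stage and genotype as terms. Signal near background limits *Dcx* and *Syt1* at E8.5.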
